A study of Mus musculus with 21 samples.

Results

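Neurons store signalling peptides in dense-core vesicles, also called granules. A peptide is made as a longer precursor, cut at pairs of basic residues by the prohormone convertases Pcsk1 and Pcsk2, trimmed by carboxypeptidase E (Cpe) and amidated by Pam, while the granins help to form and fill the granule. Precursor genes mark small neuron types: Sst, Npy, Vip and Cort mark inhibitory interneurons, Penk, Pdyn and Tac1 the projection neurons of the striatum, and Avp, Oxt, Trh, Hcrt and Pmch groups of hypothalamic cells. The cutting enzymes and granins are shared by many of these types.

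The genes described here are 34 listed symbols: 23 peptide precursors, 5 granins (Chga, Chgb, Scg2, Scg3, Vgf), 4 enzymes (Pcsk1, Pcsk2, Cpe, Pam) and 2 proteins that bind the convertases (Scg5, the chaperone of Pcsk2, and Pcsk1n, an inhibitor of Pcsk1). They were looked up by symbol, and 33 were among the 22058 protein-coding genes of the count table; Grp was not analysed here. Of the 33, 22 passed the filter on low counts and were tested among 9192 genes, and 11 did not.

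RNA came from the anterior right hemisphere of 21 mice on the C57Bl6/J background. The 9 eIF2B HOM mice were homozygous for a germline Eif2b5 R191H knock-in allele, which weakens the exchange factor eIF2B and models vanishing white matter disease, and were 93 to 114 days old (5 females, 4 males). The 12 wild-type mice were 90 to 114 days old (7 females, 5 males). All had been perfused with saline, and none of the labels gives a drug treatment. The labels divide the mice into batch 2 (5 eIF2B HOM and 4 wild-type, 90 to 104 days) and batch 1 (4 eIF2B HOM and 8 wild-type, 104 to 114 days), so batch and age cannot be told apart, and they do not say what a batch shares. Because the allele is present in every cell and the tissue is a mixture, fewer cells of a type and less RNA per cell cannot be told apart in any result below.

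Libraries were made from the 3' ends of mRNA, and PCR copies were removed by molecular identifiers. Each molecule therefore gives about 1 read whatever its length. Levels are given as counts per 1000000 protein-coding counts of a library (CPM), without division by length. The libraries held 727018 to 3100141 counts of protein-coding genes, with a median of 1222774. The library sizes implied by the deposited CPM were larger, 1090909 to 4691358, so the CPM given here lie above the deposited ones. All 13 tested genes of the integrated stress response, the programme that low eIF2B activity switches on, were higher in eIF2B HOM mice, and the summed level of the 16 listed genes was 1614 to 1893 CPM there, against 512 to 631 CPM in wild-type mice. Neuronal, astrocyte, striatal and cortical markers were present in every library and pituitary markers summed to at most 0.853 CPM in eIF2B HOM and 1.22 CPM in wild-type mice. Libraries were cut at the largest gap in the mean log2 CPM of olfactory bulb markers. Above it were 5 libraries (eIF2B HOM 1 and wild-type 3, 5, 6 and 10), with 5.24 to 5.65 against 4.13 to 4.92 in the other 16. That gap was 0.211 of the range, and the largest gap of the cortex score, which was not cut, was 0.307. By the summed level of the bulb markers the 5 did not stand apart. Wild-type 6 and 10 had 1981 and 1945 CPM, below wild-type 2 at 2192 CPM.

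Cpe, the carboxypeptidase that removes the basic residues left after cutting, stood at 2422 CPM over the 21 mice and ranked 23rd of all genes, and it made up 40.0% to 55.2% of all counts of the 33 genes in a library. Cck, the precursor of cholecystokinin made by cortical pyramidal cells and some interneurons, followed at 668 CPM (rank 129). Pcsk1n and Scg3 were level with each other at 381 CPM each, and Scg5 stood at 226 CPM. Tac1 (120 CPM), Chgb (109 CPM) and Penk (107 CPM) completed the 8 genes above 100 CPM, and the ranges of these 3 over the mice overlapped. A further 11 genes lay between 10 and 100 CPM, from Scg2 at 92.2 CPM to Cartpt at 16.7 CPM. Nmb (9.64 CPM), Crh (8.38 CPM) and Adcyap1 (7.31 CPM), which encode neuromedin B, corticotropin-releasing hormone and the peptide PACAP, were the lowest that passed the filter.

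**Figure D1:**
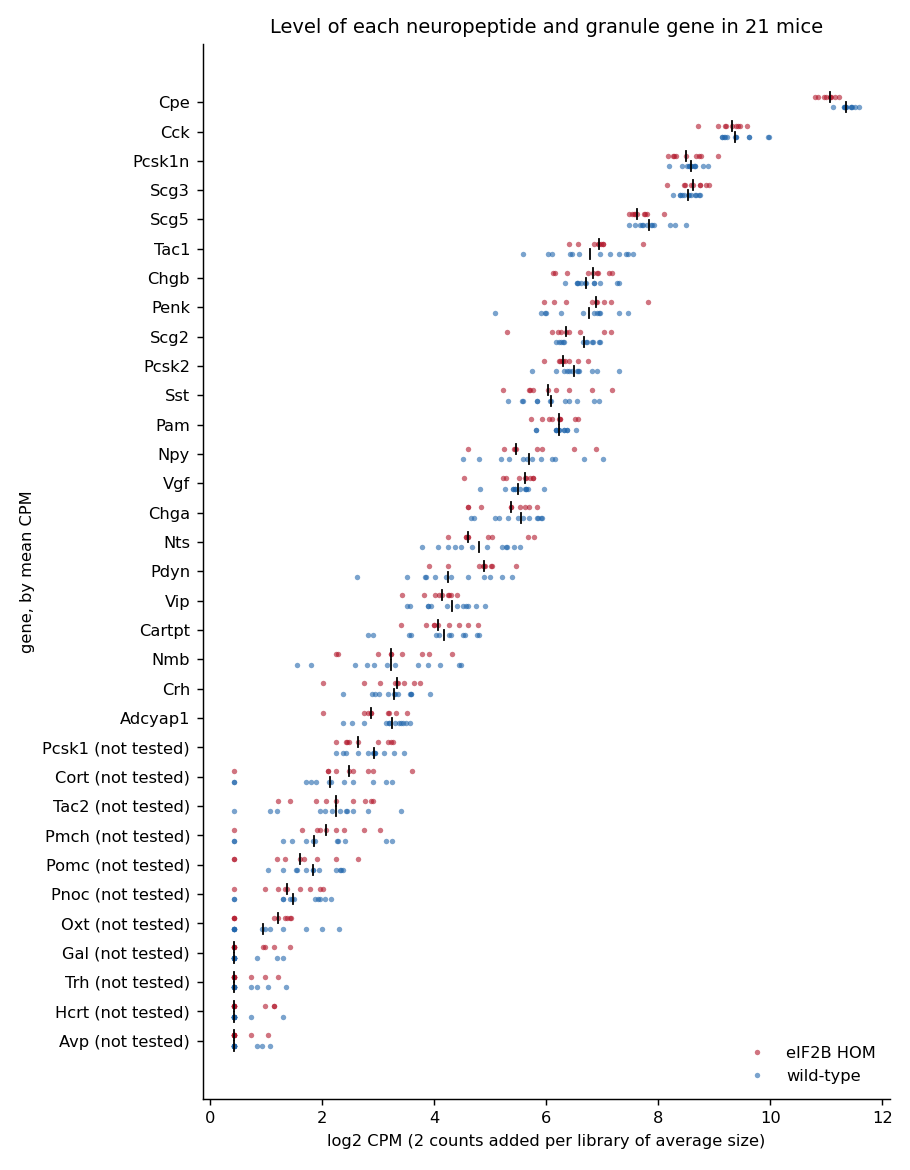
Level of each of the 33 genes in each mouse, as log2 CPM with 2 counts added per library of average size, ordered by mean CPM; each point is a mouse, the upper row of a gene is eIF2B HOM (9 mice), the lower row wild-type (12 mice), and the bar is the median. Cpe lies above every other gene in all mice, and the points at the left edge of the lower genes are libraries with 0 counts.

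Precursors of cortical and striatal neurons ranged in mean level over the 21 mice from Cck at 668 CPM to Pnoc at 1.56 CPM. Sst, the somatostatin precursor, had 36.2 to 142.7 CPM in eIF2B HOM mice (median 64.0) and 38.6 to 121.9 CPM in wild-type mice (median 66.2). Cort, which encodes the closely related cortistatin, averaged 3.98 CPM, so that Sst was 18.3 times as high, with 0 counts in 1 eIF2B HOM and 2 wild-type libraries. The coding bases around the core of each peptide are shown because the peptides resemble each other while their levels differ. The windows are aligned on the core: that of Sst ends with the precursor, and that of Cort stops 1 residue before its end. Over these 14 codons the encoded residues were identical at 11 positions and the bases at 31 of 42. The bases come from GENCODE M21 (GRCm38, minus strand; Sst at chr16:23889732-23889773, Cort at chr4:149125270-149125311), and capitals mark the codons of the shared Phe-Trp-Lys-Thr core that somatostatin receptors bind.
Sst: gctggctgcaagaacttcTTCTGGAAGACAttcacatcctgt
Cort: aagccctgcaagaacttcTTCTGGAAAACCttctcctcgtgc

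Penk and Pdyn, the enkephalin and dynorphin precursors, mark the 2 kinds of striatal projection neuron. Penk had 61.2 to 223.3 CPM in eIF2B HOM mice (median 116.7) and 32.5 to 174.5 CPM in wild-type mice (median 107.0), and Pdyn had 13.7 to 42.8 CPM in eIF2B HOM mice (median 28.2) and 4.78 to 40.3 CPM in wild-type mice (median 17.7). The groups overlapped widely for both. Penk was 4.53 times as high as Pdyn over all mice, and a Penk message also carries more copies of the enkephalin core. Its coding sequence held 7 enkephalin cores, 6 ending in methionine and 1 in leucine, against 3 in Pdyn, all ending in leucine, and each of the 10 followed a pair of basic residues, the site the convertases cut. A copy of each kind is shown, with the 5 codons of the core in capitals and the codons on either side in lower case (GENCODE M21, GRCm38, minus strand; chr4:4134328-4134354, chr4:4133935-4133961 and chr2:129688232-129688258).
Penk, first methionine copy: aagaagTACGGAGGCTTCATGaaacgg
Penk, leucine copy: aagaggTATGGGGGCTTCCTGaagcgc
Pdyn, first leucine copy: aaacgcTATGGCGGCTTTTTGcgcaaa

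Several hypothalamic peptides were close to the counting limit. Trh, Gal, Avp and Hcrt had 7, 7, 6 and 5 counts in all over the 21 libraries, with no library above 2 counts, and Oxt, the oxytocin precursor, had 29. Avp, the vasopressin precursor, had 0 counts in 7 of 9 eIF2B HOM and 9 of 12 wild-type libraries. A count of 0 allows up to 3 counts, which is 0.938 to 4.08 CPM depending on the library, so neither presence nor a genotype difference could be read for Trh, Gal, Avp and Hcrt. Oxt reached 4 counts in 1 eIF2B HOM library and 6 and 5 counts in 2 wild-type libraries, and was below the filter of the edgeR test (exact permutation test of mean log2 CPM, two-sided, p = 0.975). Pmch (3.08 CPM), the melanin-concentrating hormone precursor, and Pomc (2.13 CPM), the precursor of melanocortins and endorphin, were detected in most libraries but below the filter, as were Tac2 (3.54 CPM), Pnoc (1.56 CPM) and the convertase Pcsk1 (5.88 CPM). Pcsk2, the other convertase, stood at 87.9 CPM.

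The genotype comparison asks whether eIF2B loss changes the RNA of the peptide system. Cpe was the only one of the 22 tested genes that was called, and it fell. Cpe had 1775 to 2384 CPM in eIF2B HOM mice (median 2132) and 2221 to 3071 CPM in wild-type mice (median 2624), with means of 2088 ± 195 (SD, n = 9) and 2673 ± 218 CPM (SD, n = 12). Of the 9 eIF2B HOM mice, 7 were below every wild-type mouse and all 9 were below the wild-type median. The log2 fold change was -0.36 (SE 0.07, 95% confidence interval -0.51 to -0.21), with an adjusted p of 0.00169 by edgeR's quasi-likelihood test with Benjamini-Hochberg adjustment over 9192 genes, and the exact permutation test of the log2 CPM over all 293930 splits of the mice gave a two-sided p of 1.02e-05.

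Cpe was lower on average in eIF2B HOM mice of either batch. In batch 2 the 5 eIF2B HOM mice had 1775 to 2153 CPM (median 1985), all below the 4 wild-type mice at 2576 to 2919 CPM (median 2624). In batch 1 the 4 eIF2B HOM mice had 2053 to 2384 CPM (median 2228) and the 8 wild-type mice 2221 to 3071 CPM (median 2673), and the ranges overlapped. Fitted within a batch, the log2 fold change was -0.44 in batch 2 (adjusted p = 0.0119, edgeR) and -0.26 in batch 1, where the adjusted p was 0.465. The difference between these effects was itself -0.18 (SE 0.14) and did not pass (adjusted p = 1 for the interaction, edgeR).

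**Figure D2:**
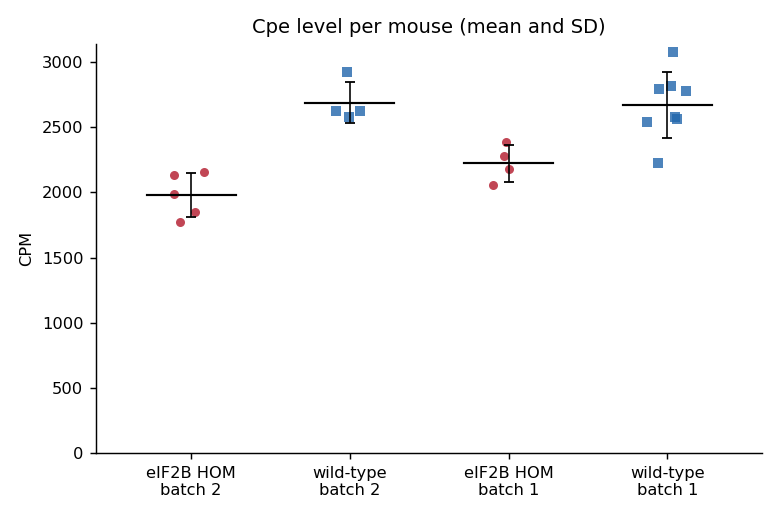
Cpe level in CPM for each mouse, by genotype and batch; each point is a mouse and the black lines are the mean and SD of the group. In batch 2 the eIF2B HOM mice sit at 1775 to 2153 CPM, below every wild-type mouse at 2576 to 2919 CPM, and in batch 1 the groups overlap between 2221 and 2384 CPM.

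Cpe is made by astrocytes as well as by neurons, and some markers of astrocytes moved in the same comparison. From a list of 14 astrocyte markers, chosen after the values were seen, Slc1a2 (the main glutamate transporter), S100b, Ntsr2 and Mlc1 were lower in eIF2B HOM mice, Gfap (the reactive filament protein) was higher, and 9 did not pass. The summed level of the list was 8239 to 13632 CPM in eIF2B HOM mice (median 11318) and 10786 to 16800 CPM in wild-type mice (median 14575). Slc1a2 alone had medians of 3812 CPM in eIF2B HOM and 6120 CPM in wild-type mice. The mean log2 CPM of the list, in which each marker counts alike, averaged 8.04 in eIF2B HOM and 8.14 in wild-type mice. The median log2 fold change of the list was -0.10. None of 14 pan-neuronal markers was called in either direction by edgeR (1 at an unadjusted p under 0.05) or by limma, and their summed level was 5350 to 7625 CPM (median 7016) in eIF2B HOM and 5326 to 8452 CPM (median 6860) in wild-type mice. The part of these cells in the Cpe result was not tested.

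Over all 9192 genes 2.62% were called higher and 1.70% lower, and 0 higher and 1 lower of 22 stand close to those shares. The median log2 fold change of the 22 genes was -0.04 beside -0.01 over all genes, with 13 values below 0 and 9 above. At an unadjusted p under 0.05 edgeR returned 2 of the 22, Cpe and Scg5, and limma and DESeq2 each called Cpe alone. The other 21 log2 fold changes lay between -0.25 and 0.39. Their precision differed: the half-width of the 95% interval was 0.15 at its smallest, 0.31 at the median and 0.72 at its largest, so for the low and variable genes a change of moderate size was not detectable.

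The 6 genes next to Cpe by p-value were Scg5, Cck, Vip, Pdyn, Pcsk2 and Scg3, with adjusted p-values of 0.238 to 0.697 (edgeR). Scg5, which escorts Pcsk2 to the granule, had 176 to 273 CPM in eIF2B HOM mice (median 194.5) and 178 to 358 CPM in wild-type mice (median 227), with a log2 fold change of -0.23 (SE 0.10). Cck had 416 to 762 CPM in eIF2B HOM mice (median 639) and 561 to 1002 CPM in wild-type mice (median 663), with a log2 fold change of -0.16 (SE 0.10). Vip, the marker of interneurons that inhibit other interneurons, had 9.39 to 19.8 CPM (median 16.2) in eIF2B HOM and 10.1 to 28.8 CPM (median 18.7) in wild-type mice, with a log2 fold change of -0.25 (SE 0.16). The groups overlapped for all 3. Pdyn had the most positive value, 0.39 (SE 0.25), Pcsk2 had -0.18 (SE 0.12) and Scg3, a granin that ties the others to the granule membrane, had 0.08 (SE 0.08).

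By role, 12 of the 23 precursors were tested, 6 with a value below 0, and the median log2 fold change was 0.01. The summed precursor level was 849 to 1568 CPM in eIF2B HOM mice (median 1089) and 940 to 1640 CPM in wild-type mice (median 1149). The 5 granins lay between -0.13 (Chga) and 0.08 (Scg3), and their summed level was 624 to 724 CPM (median 674) in eIF2B HOM and 590 to 736 CPM (median 662) in wild-type mice. The amidating enzyme Pam had a log2 fold change of 0.00 (95% confidence interval -0.19 to 0.20). The summed level of the 4 enzymes, most of which is Cpe, was 1955 to 2538 CPM (median 2304) in eIF2B HOM and 2417 to 3187 CPM (median 2791) in wild-type mice.

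**Figure D3:**
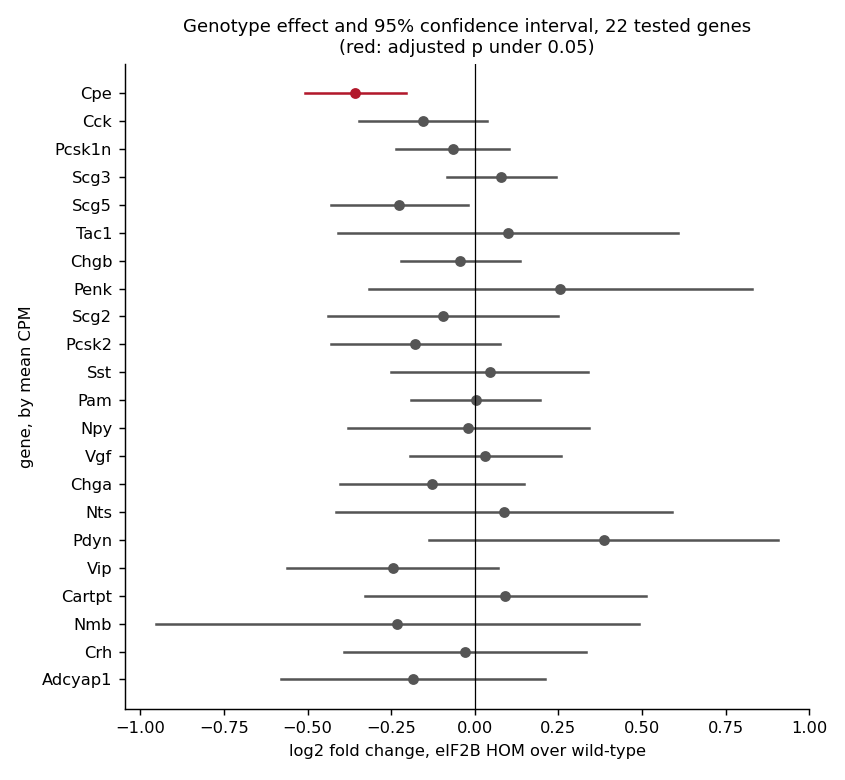
Log2 fold change of eIF2B HOM over wild-type mice with its 95% confidence interval for the 22 tested genes, from edgeR with sex and age as covariates, ordered by mean CPM; red marks an adjusted p under 0.05. Only the interval of Cpe, -0.51 to -0.21, belongs to a called gene, and the widest intervals belong to Nmb, Penk, Pdyn, Tac1 and Nts.

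Other genes of the peptide system were read from lists. Of 36 receptors and peptide-binding proteins, 10 were tested, 1 was higher and 1 was lower. Ntsr2, a neurotensin receptor found mainly on astrocytes, fell to 76.9 CPM in eIF2B HOM mice, against 120 CPM in wild-type mice (log2 fold change -0.64, SE 0.09). Its 9 eIF2B HOM values ran from 59.2 to 96.6 CPM (median 73.3) and its 12 wild-type values from 95.2 to 139.6 CPM (median 117.1). Adcyap1r1, the PACAP receptor, rose to 140 CPM in eIF2B HOM mice, against 105 CPM in wild-type mice (log2 fold change 0.42, SE 0.09). The ligands of both receptors did not pass: Nts had a log2 fold change of 0.09 (SE 0.24) and Adcyap1 of -0.18 (SE 0.20). None of 25 tested genes of the dense-core vesicle machinery, of 15 other proteases and peptide-modifying enzymes, or of 5 other secreted peptide precursors was called, with median log2 fold changes of -0.01, 0.07 and -0.25. At an unadjusted p under 0.05 edgeR returned 2, 4 and 2 of them, and limma called Mme, the enkephalin-degrading neprilysin, and none of the others.

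The precursors of interneurons were read beside other interneuron genes. Sst, Npy and Vip did not pass, and of 15 tested interneuron markers outside the peptide list 13 did not pass, including Gad1, Gad2 and Pvalb. Cox6a2, a mitochondrial subunit found in parvalbumin interneurons, had 24.0 to 57.1 CPM (median 31.3) in eIF2B HOM and 8.53 to 27.9 CPM (median 14.7) in wild-type mice and was higher. Lamp5, which marks neurogliaform cells and upper cortical layers, had 21.5 to 37.9 CPM (median 25.8) in eIF2B HOM and 26.1 to 63.2 CPM (median 38.4) in wild-type mice and was lower.

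More genes were called between batches than between genotypes, both in the list and over all genes. In a fit with genotype and sex, 5 of the 22 were higher in batch 2 and 1 was lower, beside 10.2% higher and 11.4% lower of all 9192 genes. The median log2 difference of the 22 genes, batch 2 over batch 1, was 0.25, and that of all genes was 0.00. The genes that were higher were Sst, Npy, Crh, Chga and Chgb, and the gene that was lower was Pcsk1n.

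Sst had 64.0 to 142.7 CPM in batch 2 (median 92.5) and 36.2 to 79.3 CPM in batch 1 (median 51.9), a log2 difference of 0.86 (SE 0.13). All 9 mice of batch 2 lay above the median of batch 1, and 7 lay above its highest mouse. Within eIF2B HOM mice Sst had 64.0 to 142.7 CPM in batch 2 and 36.2 to 53.0 CPM in batch 1, and within wild-type mice 84.0 to 121.9 CPM in batch 2 and 38.6 to 79.3 CPM in batch 1, so the batches did not overlap in either genotype. Npy, often made by the same cortical interneurons, had 41.8 to 128.2 CPM in batch 2 and 21.4 to 58.6 CPM in batch 1, a log2 difference of 0.90 (SE 0.22). Chgb had 106.5 to 156.8 CPM in batch 2 and 68.4 to 114.6 CPM in batch 1 (log2 difference 0.53, SE 0.09), and Chga had 40.2 to 58.4 CPM in batch 2 and 22.8 to 59.5 CPM in batch 1 (log2 difference 0.59, SE 0.13). Crh had 8.48 to 13.8 CPM in batch 2 and 2.72 to 10.4 CPM in batch 1 (log2 difference 0.60, SE 0.19). Pcsk1n went the other way, with 288 to 401 CPM in batch 2 and 366 to 537 CPM in batch 1 (log2 difference -0.31, SE 0.08). The adjusted p-values of these 6 genes by edgeR ran from 8.87e-05 (Sst) to 0.0254 (Crh).

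**Figure D4:**
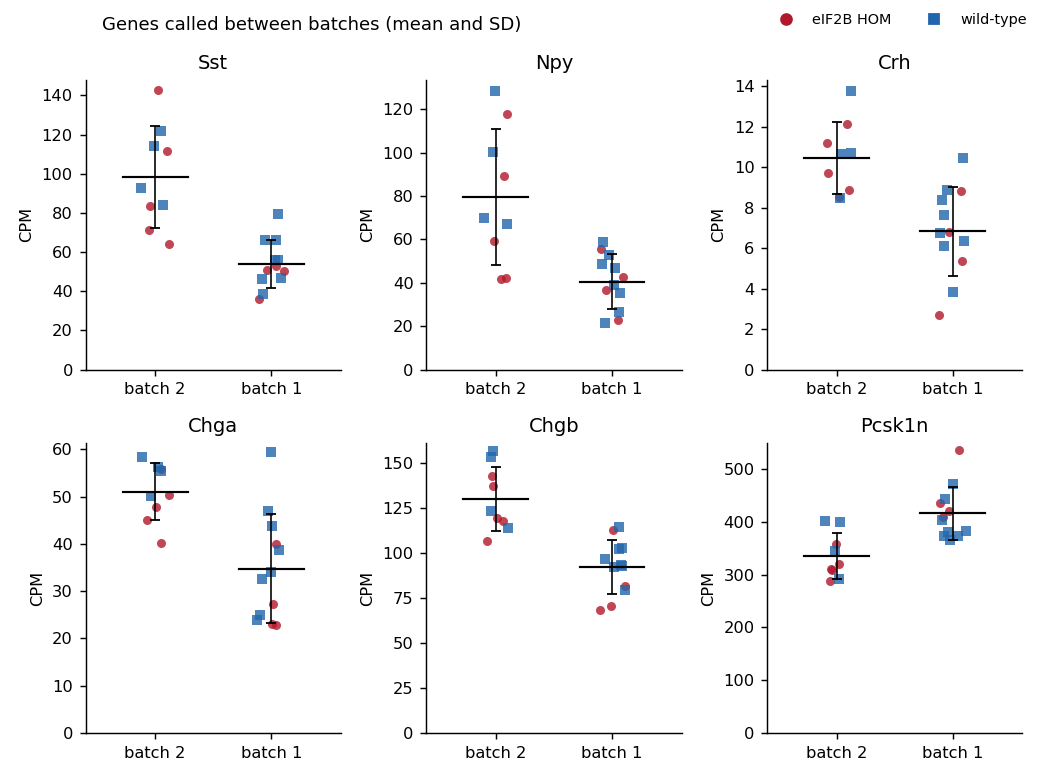
CPM of the 6 genes called between batches, for each mouse of batch 2 (9 mice) and batch 1 (12 mice); circles are eIF2B HOM, squares wild-type, and the lines are the mean and SD of the batch. Sst, Npy, Crh, Chga and Chgb average higher in batch 2 and Pcsk1n averages lower.

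Neuronal genes outside the list moved with batch as well. Of the 14 pan-neuronal markers 10 were higher in batch 2 and none was lower, and their mean log2 CPM was 8.27 to 8.70 in batch 2 and 7.79 to 8.36 in batch 1. Of the 25 tested genes of the vesicle machinery 10 were higher and none was lower. The libraries of batch 2 were also deeper, with 1108492 to 3100141 protein-coding counts (median 1574403) against 727018 to 2215650 (median 1082281) in batch 1. The part of these in the batch differences was not tested. The astrocyte list showed the other direction, with 5 of its 14 genes lower in batch 2 and none higher.

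Sst, Chgb and Scg2 are classical genes with a cyclic AMP response element, the palindrome TGACGTCA to which CREB binds. RefSeq promoters (GRCm38.p6, 250 bases before to 50 after a start) were found for 28 of the 33 genes; Crh, Cpe, Penk, Pnoc and Vgf have no entry in that table. The whole element, the same on both strands, was in 5 of the 28 (Sst, Chgb, Scg2, Pcsk1 and Cartpt) and in 1.79% of all 32851 promoters of that length. These are unlike units: a gene counted if any of its promoters held the element, while 1.79% is a share of single promoters. The share over all genes was not computed. The element was in 2 of the 4 genes with a promoter that were higher in batch 2, Sst and Chgb, and in neither Npy nor Chga. The element with 26 bases on either side is shown for the 5 genes, 5′ to 3′ along the gene, with the match in capitals. The windows lie at chr16:23890859-23890918 (minus strand), chr2:132781544-132781603 (plus), chr1:79440061-79440120 (minus), chr13:75089753-75089812 (plus) and chr13:99900762-99900821 (minus). The first base of the element lay 48, 72, 68, 78 and 112 bases before the start.
Sst: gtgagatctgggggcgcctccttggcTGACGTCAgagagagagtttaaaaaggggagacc
Chgb: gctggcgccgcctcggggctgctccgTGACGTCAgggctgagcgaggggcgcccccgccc
Scg2: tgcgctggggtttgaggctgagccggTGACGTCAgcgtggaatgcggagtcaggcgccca
Pcsk1: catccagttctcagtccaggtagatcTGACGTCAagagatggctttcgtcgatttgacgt
Cartpt: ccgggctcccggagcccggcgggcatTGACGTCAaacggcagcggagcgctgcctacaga

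A match to these letters is a description of the reference sequence and says nothing of binding in these mice. The 5 genes did not share a direction between batches. Scg2 had a log2 difference of 0.35 (SE 0.15, adjusted p = 0.1, edgeR) and Cartpt, the CART peptide precursor, of -0.45 (SE 0.22, adjusted p = 0.152, edgeR), and Pcsk1 was not tested. None of the 4 that were tested was called between genotypes.

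Sex and the interactions gave no call in the list. Female and male mice differed in 3 of 9192 genes (0.0326%), none of them in the list by edgeR or limma, where the smallest unadjusted p was that of Vgf, a granin-like precursor (0.0276 by edgeR, adjusted p = 1). The genotype effect did not differ by sex for any gene (0% called, edgeR), with 0 of the 22 at an unadjusted p under 0.05. It did not differ by batch for any gene either (0% called, edgeR), although Cck, Pcsk1n, Scg3, Scg2 and Pcsk2 had an unadjusted p under 0.05 and the adjusted value was 1 for each. In Cck the log2 genotype effect was lower by 0.51 (SE 0.19) in batch 2: there the eIF2B HOM mice had 537 to 682 CPM (median 590) and the wild-type mice 672 to 1002 CPM (median 892), while in batch 1 they had 416 to 762 CPM (median 673) and 561 to 782 CPM (median 590). Scg2 showed the opposite sign, 0.62 (SE 0.27).

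The genes differed in how much they varied between mice of 1 genotype. The SD of log2 CPM within genotype was 0.42 at the median of the 22 tested genes and 0.31 over all tested genes, and 14 of the 22 had a dispersion above the trend for their level, against 38.0% of all genes. The 6 most variable genes with a mean of 5 CPM or more were all precursors. Nmb, made in the olfactory bulb among other places, had an SD of 0.86 and ran from 1.59 to 21.03 CPM. Npy had an SD of 0.71, Pdyn 0.67, Penk 0.64, Cartpt 0.58 and Nts 0.56. Over the mice of both genotypes Penk ran from 32.5 to 223.3 CPM, 6.87 times, and Pdyn from 4.78 to 42.8 CPM, 8.95 times. For both genes the lowest mouse was wild-type and the highest eIF2B HOM, so the spread within 1 genotype was smaller. The 3 steadiest by this SD were no precursors: Cpe had an SD of 0.13, at percentile 1.01 of all tested genes, Scg3 of 0.19 and Pcsk1n of 0.23. They ranked 1, 4 and 3 in level among the 33 genes, and the SD includes counting error. The square root of edgeR's dispersion leaves counting error out. It also leaves out what sex and age explain, and age goes with batch, so it is not the same measure as the SD. By that measure Cpe had 0.11, beside a median of 0.12 over all tested genes. The lowest values of the 22 genes were those of the precursors Crh (0.06) and Adcyap1 (0.09). Both had few counts, at most 44 and 32 in a library. Crh had an SD of 0.46 within genotype and was called between batches, so its low value does not make it a steady gene.

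Batch took part of that spread for some genes and little for others. Within genotype it accounted for 65.7% of the variance of Sst, 65.4% of Chgb, 60.1% of Pcsk1n, 53.7% of Chga and 50.02% of Npy. These shares use a separate batch mean in each genotype, so they include any difference of the batch effect between genotypes. They are not corrected for the added means, which take up some variance without any batch effect. By this measure batch accounted for 18.9% of the variance of Penk, 8.53% of Tac1 and 3.26% of Nts. Penk averaged 144.6 CPM in batch 2 and 81.8 CPM in batch 1 in eIF2B HOM mice. In wild-type mice it averaged 101.9 and 99.1 CPM. The SD of log2 CPM, which allows for the added means, was not smaller within genotype and batch for Tac1 (0.553 against 0.547) or Nts (0.583 against 0.561). For Penk, Tac1 and Nts most of the variance was between mice of the same batch and genotype.

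Their levels were set against marker scores, the mean log2 CPM of regional markers other than the 34 genes, in 17 pairs of a gene and a region. Of these 6 passed after Benjamini-Hochberg adjustment over the 17 pairs (permutation test, two-sided, 100000 resamples). Penk was higher where the striatum score was higher, with Pearson's r of 0.84 over 21 mice (adjusted permutation p = 0.00017) and Spearman's rho of 0.79. Without the 2 mice farthest from the median score r was 0.78, and within batch 2 and batch 1 it was 0.89 and 0.90. Tac1, the substance P precursor, gave r = 0.73 and rho = 0.68 (adjusted permutation p = 0.0011), with 0.59 without the 2 mice, 0.66 within batch 2 and 0.81 within batch 1. Pdyn gave r = 0.56 and rho = 0.51 (adjusted permutation p = 0.0213), but 0.38 without the 2 mice (adjusted permutation p = 0.21), so its call over all mice depends on them. Within batches Pdyn gave r = 0.69 in batch 2 and 0.63 in batch 1, with adjusted permutation p of 0.161 and 0.119. The points of these pairs share a library and its scaling.

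The mouse eIF2B HOM 9 stood highest for the striatum peptides, at 223.3 CPM for Penk, 210.9 CPM for Tac1 and 42.8 CPM for Pdyn. It also had the highest striatum score, 5.96. The same mouse had the highest mean log2 CPM of hypothalamus markers (3.41), interneuron markers (4.77) and vesicle machinery genes (5.88). The mouse eIF2B HOM 2 had nearly the same striatum score, 5.95, but 116.7 CPM for Penk and 122.1 CPM for Tac1. Without eIF2B HOM 9 the log2 fold change between genotypes was 0.11 for Penk and -0.04 for Tac1, against 0.26 and 0.10 with it. With the striatum score as a covariate these values were 0.07 for Penk, -0.05 for Tac1 and 0.19 for Pdyn. None of the 3 genes was called in any of these fits.

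Nmb followed the olfactory bulb score. The 5 libraries with the highest bulb score had 11.8 to 21.03 CPM (median 18.6) and the other 16 had 1.59 to 13.6 CPM (median 7.11). The ranges overlapped only between 11.8 and 13.6 CPM. The correlation was computed only within the 16 libraries below the cut, which was chosen from the scores themselves. There r was 0.74 (rho 0.87, adjusted permutation p = 0.00438), 0.59 within batch 2 and 0.80 within batch 1. Cck and Crh, whose messages are also found in bulb neurons, gave r of -0.28 and -0.40 there and did not pass. With the cortex score Cck gave r = 0.73 (rho 0.50, adjusted permutation p = 0.00147), 0.86 within batch 2 and 0.45 within batch 1, and Npy r = 0.57 (rho 0.57, adjusted permutation p = 0.0213), 0.53 within batch 2 and 0.59 within batch 1. Without the 2 mice farthest from the median score Cck kept an r of 0.60 (adjusted permutation p = 0.0346) and Npy had 0.52 (adjusted permutation p = 0.0669), so the call for Npy depends on them. Sst, Vip, Cort, Crh, Tac2 and Pnoc with the cortex score, and Cartpt, Pmch and Pomc with the hypothalamus score, did not pass over all mice by Pearson's r. By Spearman's rho Sst (0.50, adjusted permutation p = 0.0492) and Vip (0.54, adjusted permutation p = 0.0425) did pass. Cartpt, which is made in the hypothalamus and in other regions, gave r = 0.88 with that score within batch 2 (adjusted permutation p = 0.0146) and 0.43 within batch 1.

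**Figure D5:**
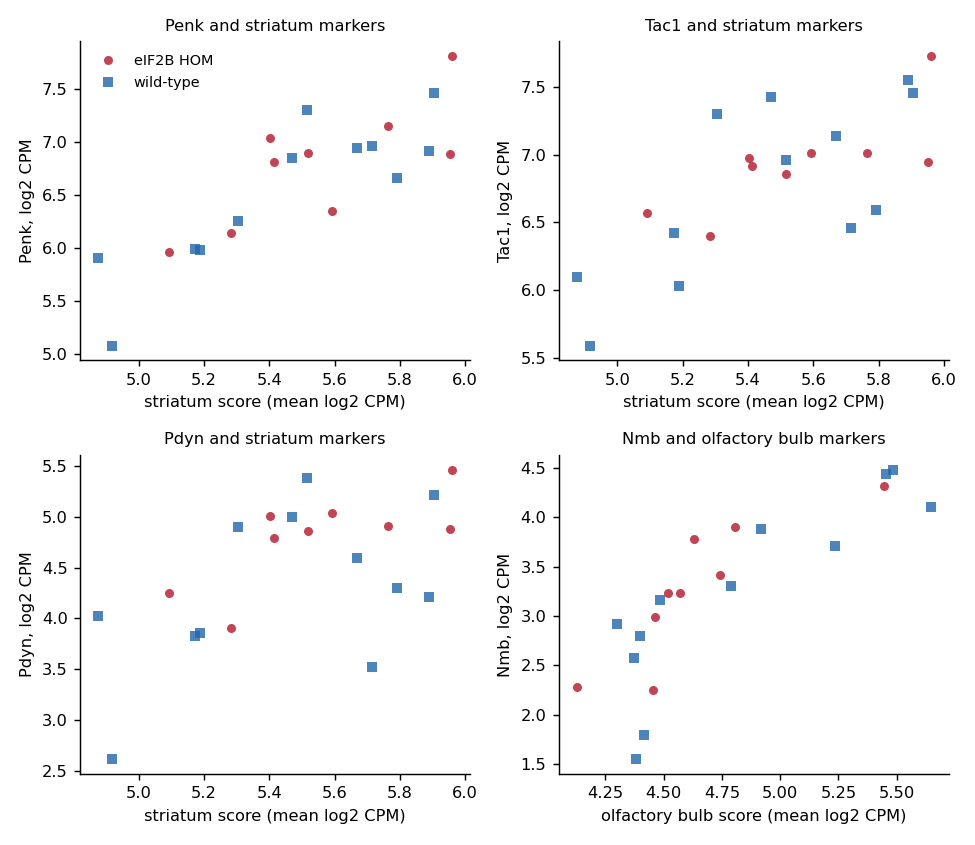
Log2 CPM of Penk, Tac1 and Pdyn against the striatum score and of Nmb against the olfactory bulb score (mean log2 CPM of regional markers), 1 point per mouse, circles eIF2B HOM and squares wild-type. Penk climbs with the score in both genotypes, and the 5 libraries with a bulb score of 5.24 to 5.65 hold most of the highest Nmb levels.

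The genes most like the 3 most variable ones were found by Pearson's r of log2 CPM over the 21 mice, as a description. Nmb was most like Myg1 (0.73), Ift74 (0.73), Gkap1 (0.70) and Tshz1 (0.70), the last of which is 1 of the bulb markers. Npy was most like Brinp1 (0.93), Clip1 (0.93), Ubb (0.92) and Stmn1 (0.91). Pdyn was most like Six3 (0.84), which is 1 of the hypothalamus markers, Tac1 (0.83), Fem1a (0.80) and Klhl13 (0.79). Pdyn was not set against the hypothalamus score. The mice share batch and library scaling in all of these.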

How the data were processed

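The members and gene lists were chosen with earlier results of these data known. RNA of 21 hemispheres was sequenced as QuantSeq 3' libraries, 1 per mouse. Per the methods, the authors trimmed reads with skewer, aligned them with STAR to GRCm38 and counted them with featureCounts of subread; versions credited to the submitters' notes are 1.6.2 for Subread and 3.40.2 for edgeR. The deposited counts cover 22058 protein-coding genes, with values from 100 upward given to only 2 significant digits, an error of 5% at most. The authors also deposited CPM scaled by library size, used here only to infer library sizes, also for an alternative fit. Groups, sex, age and batch came from the labels.

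Tests ran on the deposited counts in R 4.3.3 by the robust quasi-likelihood method of edgeR 4.0.16, with genotype, sex and age as terms, TMM factors, filterByExpr on the genotype groups, and Benjamini-Hochberg adjustment over 9192 genes with a threshold of 0.05. The batch fit held batch, genotype and sex. The alternatives used limma 3.58.1 (voomWithQualityWeights, the test in the authors' methods) and DESeq2 1.42.0. CPM is the count over the total protein-coding count times the TMM factor, and log2 CPM adds 2 counts per library of average size. The SE is the log2 fold change over the square root of F. Marker scores are means of log2 CPM over listed genes of 1 CPM or more. Libraries held 727018 to 3100141 protein-coding counts. Counting intervals and the floor of 3 counts cover counting error only. Genes named with full genotype values are those called and the 6 next by p; spread is given for the 6 largest and 3 smallest SD at 5 CPM or more, and from each further list up to 3 called genes are named; Cox6a2, Lamp5 and the astrocyte markers were named after their values were seen. The paper describes the wild-type and homozygous mice as littermates, but the labels name no litter, so litter could not be entered. The p-values treat the mice as independent, and the effect of shared litters on them was not tested. The edgeR and limma fits were tested on simulated data. Correlations and figures used Python 3.11.15, SciPy 1.17.1 and matplotlib 3.10.9.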

Additional observations from a re-analysis of the deposited data

Results flagged for a closer look

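In 4 of the 33 genes the highest eIF2B HOM mouse stood apart from the others of its group, by a gap test that picks about 1 in 20 groups by chance alone. Mouse eIF2B HOM 9 was the highest of its group for Penk (223.3 CPM, next mouse 140.4 CPM), Tac1 (210.9 CPM, next mouse 127.7 CPM) and Scg5 (272.9 CPM, next mouse 221.7 CPM). Mouse eIF2B HOM 7 was the highest for Avp, at 0.6946 CPM, which is 2 counts. The 12 wild-type mice are too many for this test as 1 group. The same test was run on each of the 22 tested genes within each genotype and batch, so some picks there come by chance alone. It picked wild-type 8 for Scg5 in batch 1 (358 CPM, next mouse 232.7 CPM) and wild-type 9 for Cpe in batch 2 (2919 CPM, next mouse 2626 CPM). Further picks were eIF2B HOM 2 for Sst in batch 1 (lowest at 36.2 CPM, next mouse 50.2 CPM), and eIF2B HOM 9 for Penk, Tac1 and Pdyn in batch 2 (Pdyn 42.8 CPM, next mouse 30.8 CPM). No gene of the list differed in its genotype effect by sex or by batch after adjustment.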

How the results depend on the processing

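Cpe was called lower in 35 of 38 alternative fits, and its log2 fold change ran from -0.44 to -0.26 over all 38. It was not called in batch 1 alone (-0.26, adjusted p = 0.465), females alone (-0.34, adjusted p = 0.0746) or males alone (-0.39, adjusted p = 0.295), all by edgeR. The number of genes of the list called lower in eIF2B HOM mice was thus 0 in these 3 fits, which hold fewer mice. It was 2 in batch 2 alone, where Cck joined Cpe (-0.46, adjusted p = 0.0312), and 1 in the others. No gene of the list was called higher in eIF2B HOM mice in any fit. Leaving out 1 mouse at a time left the counts at 1 lower and 0 higher, with Cpe between -0.38 and -0.33 (adjusted p at most 0.0086). With age and batch together, an alternative chosen after seeing the data, Cpe had -0.28 (adjusted p = 0.0369, edgeR). Without the 5 libraries with the highest bulb score, chosen likewise, Cpe had -0.34 (adjusted p = 0.034, edgeR). Among the 21 genes not called, 87 values over 16 genes changed sign. Between batches, 11 were higher and 2 lower with no filter on low counts, against 5 and 1, and the cause was not tested. Without the 5 libraries 2 were lower, since Cartpt passed (-0.76), and 6 were higher, since Cck passed (0.38, adjusted p = 0.0246, edgeR). limma called 7 higher in batch 2, adding Vip and Scg5. Of the pairs with region scores 3 passed within batch 2 and 3 within batch 1, with fewer mice. The median SD of the 22 genes was 0.35 within genotype and batch, against 0.42 within genotype. No paired analysis was possible because the labels give no replicate numbers, litters or pairs, and the numbers used here only name mice. Libraries of about 1000000 protein-coding counts limit the genes under 5 CPM.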
